A study of Homo sapiens with 4 samples.

Results

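Very wide H3K4me3 peaks were those of at least 8000 bp, chosen by their measured width alone from the list of H3K4me3 peaks that the authors called in MCF10A cells. On chromosomes 1 to 22 there were 654 of them among 65793 peaks, which is 0.994%. MCF10A is an immortalised, non-tumour-forming line of human breast epithelial cells. All groups share that line, no treatment is named for any of them, and all were grown in mammary epithelial medium with cholera toxin at 100 ng/ml. Chromatin was immunoprecipitated for trimethylated lysine 4 (H3K4me3), dimethylated lysine 79 (H3K79me2) or trimethylated lysine 27 (H3K27me3) of histone H3, with 1 library per mark, and an input library whose peaks were not analysed here. No value below therefore has a replicate check, and no difference between marks or peaks was tested across samples.

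H3K4me3 is laid down at the start sites of genes by the SET1 and MLL enzymes, and most of its peaks are short. A small set of very long stretches is known from many cell types, where they often lie over genes that the cell uses heavily. H3K79me2, made by DOT1L, covers the first part of transcribed genes, beginning just downstream of the start. H3K27me3, made by the Polycomb enzyme EZH2, marks genes held silent.

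The promoters under these peaks ranged from stretches packed with CpG dinucleotides to stretches with none. Below are 250 bases upstream of 1 start site for 3 genes, read on the strand of the gene from RefSeq (GRCh38.p14), with each CpG in capitals, to show both ends of that range. DVL1, which relays Wnt signals, had the most CpG of the 3, 49 in chr1:1349419-1349668 (minus strand) under a peak of 8238 bp. SLC7A5, the large amino acid transporter subunit, had 34 in chr16:87869508-87869757 (minus strand) under a peak of 22154 bp. AMOTL2, which binds and restrains the coactivator YAP, had 0 in chr3:134375418-134375667 (minus strand) under a peak of 9597 bp.
DVL1: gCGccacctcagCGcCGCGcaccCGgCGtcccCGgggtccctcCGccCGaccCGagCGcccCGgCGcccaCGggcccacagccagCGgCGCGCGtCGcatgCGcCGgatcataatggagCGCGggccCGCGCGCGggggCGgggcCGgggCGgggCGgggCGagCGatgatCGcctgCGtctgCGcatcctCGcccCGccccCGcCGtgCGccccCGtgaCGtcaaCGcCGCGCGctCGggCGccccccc
SLC7A5: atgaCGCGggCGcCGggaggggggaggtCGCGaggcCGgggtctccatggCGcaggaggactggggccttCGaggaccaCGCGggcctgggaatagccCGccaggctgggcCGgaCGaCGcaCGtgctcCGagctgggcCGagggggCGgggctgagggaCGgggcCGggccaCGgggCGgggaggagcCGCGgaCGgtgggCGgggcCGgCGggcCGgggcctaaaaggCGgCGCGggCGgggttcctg
AMOTL2: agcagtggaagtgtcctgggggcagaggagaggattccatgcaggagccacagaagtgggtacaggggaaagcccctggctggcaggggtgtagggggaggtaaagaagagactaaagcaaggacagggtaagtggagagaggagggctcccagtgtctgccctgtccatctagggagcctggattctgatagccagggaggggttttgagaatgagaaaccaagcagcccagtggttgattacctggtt

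The letters TATAAA, the usual form of the TATA box that positions the start of transcription at a minority of promoters, were found just upstream of the start more often under very wide peaks than under peaks of 2000 to under 8000 bp (values follow further on). The 60 bases just upstream of the start are printed for 8 of the 31 genes concerned, 5′ to 3′ on the gene's strand, with the TATAAA match in capitals. They include the 2 growth factor genes AREG and EREG, whose proteins bind the EGF receptor, the annexin gene ANXA2, the stress-responsive phosphatase gene DUSP1 and the transcription factor genes TFAP2A and JUNB. H3C15 encodes the replication-dependent histone H3, and MT2A a metal-binding metallothionein. On GRCh38.p14 the stretches of TFAP2A, AREG and EREG are chr6:10419660-10419719 (minus strand), chr4:74445076-74445135 (plus strand) and chr4:74365085-74365144 (plus strand). Those of ANXA2, DUSP1 and JUNB are chr15:60397987-60398046 (minus strand), chr5:172771196-172771255 (minus strand) and chr19:12791426-12791485 (plus strand). Those of H3C15 and MT2A are chr1:149852548-149852607 (plus strand) and chr16:56608524-56608583 (plus strand).
TFAP2A: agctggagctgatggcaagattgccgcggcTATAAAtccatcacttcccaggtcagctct
AREG: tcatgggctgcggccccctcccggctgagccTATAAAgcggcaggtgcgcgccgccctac
EREG: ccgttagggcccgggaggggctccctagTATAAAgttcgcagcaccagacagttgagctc
ANXA2: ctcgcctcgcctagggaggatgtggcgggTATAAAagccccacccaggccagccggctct
DUSP1: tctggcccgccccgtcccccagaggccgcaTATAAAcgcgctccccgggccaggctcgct
JUNB: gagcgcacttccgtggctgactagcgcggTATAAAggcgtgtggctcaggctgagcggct
H3C15: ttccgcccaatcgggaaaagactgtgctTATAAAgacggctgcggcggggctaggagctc
MT2A: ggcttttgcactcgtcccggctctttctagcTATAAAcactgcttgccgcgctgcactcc

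Mature microRNAs whose hairpins lay inside very wide peaks are shown next, from RefSeq, because some of them share a seed. Seeds, bases 2 to 8, are in capitals. The let-7 pair came from 1 peak on chromosome 9 and the miR-15b and miR-16 pair from 1 peak on chromosome 3.
let-7a-5p: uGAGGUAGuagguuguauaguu
let-7f-5p: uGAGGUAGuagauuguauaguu
miR-15b-5p: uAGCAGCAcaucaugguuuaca
miR-16-5p: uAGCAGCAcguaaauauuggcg
miR-21-5p: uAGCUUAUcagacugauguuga
miR-125b-5p: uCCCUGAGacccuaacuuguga
miR-193b-3p: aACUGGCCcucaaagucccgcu
miR-365a-3p: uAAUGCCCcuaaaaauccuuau
miR-191-5p: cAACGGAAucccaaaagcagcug

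Width chose these peaks, so the values of width and of H3K4me3 enrichment are a description. Together the 654 peaks covered 6.71 Mb, which was 6.91% of all bases in H3K4me3 peaks. Their median width was 9394 bp, with 264 between 8000 and 9000 bp, 140 up to 10000 bp, 150 up to 12000 bp, 71 up to 15000 bp, 20 up to 20000 bp and 9 of 20000 bp or more. The authors' fold enrichment over the peak caller's background had a median of 14.4 in very wide peaks and 15.8 in the 4705 peaks of 4000 to under 8000 bp, so very wide peaks were not the most enriched ones. Within the set the median fold went down as width went up, with 15 in the peaks under 9000 bp and 11.2 in those of 20000 bp or more. The fold ran up to 27.6 at TNRC18, which encodes a chromatin protein, followed by 24.97 at SIN3A, the scaffold of a histone deacetylase complex, and 24.8 at ZFP36L1, an mRNA decay factor. Just inside the threshold were the peaks at EIF3E (8000 bp, fold 13.9), HNRNPH3 with PBLD (8009 bp, fold 16.3) and ADGRF3 with SELENOI (8010 bp, fold 15.4). Just outside it were those at RBBP4 with ZBTB8OS (7997 bp, fold 15.5), BTF3L4 with TXNDC12 (7995 bp, fold 16.4) and MVP with PAGR1 and PRRT2 (7989 bp, fold 16.2).

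**Figure D1:**
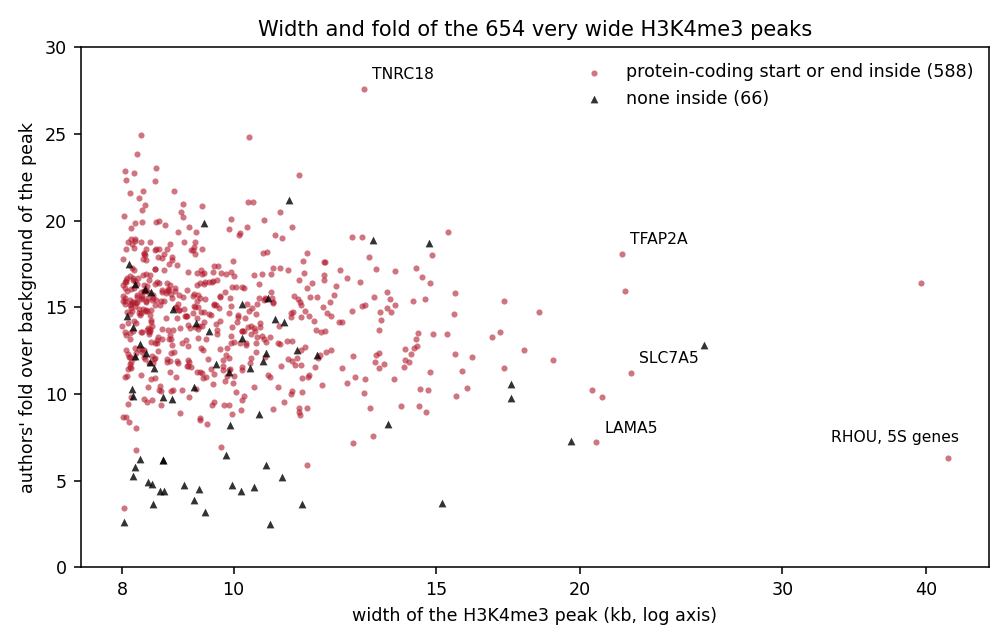
Each point is 1 of the 654 very wide H3K4me3 peaks, with its width in kb on a log axis and the authors' fold over background on a linear axis. Red circles are the 588 peaks that hold a start or record end of a protein-coding gene, and black triangles the 66 that hold none, whose median fold was 10.3 against 14.7.

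The widest peak lay over an array of RNA polymerase III genes. At chr1:228608250-228650024 it spanned 41775 bp with a fold of 6.31 and lay over 17 genes of 5S ribosomal RNA and over the start of RHOU. Only 4.12% of it was in H3K79me2 peaks. These 5S genes are near-identical copies, so where their reads were placed is uncertain. The next peak, chr22:46051957-46091563, spanned 39607 bp with a fold of 16.4 over MIRLET7BHG, the host transcript of let-7 microRNAs, and the protein-coding record LOC124905135, and was 96.2% in H3K79me2. The third held NEAT1, the long noncoding RNA (lncRNA) that builds nuclear paraspeckles, at chr11:65415911-65441549 (25639 bp, fold 12.8, 98.7% in H3K79me2). MALAT1, its neighbour and another abundant nuclear lncRNA, had a separate peak of 13230 bp with a fold of 18.9.

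Next in width after the 3 widest peaks were those over SLC7A5 (22154 bp, fold 11.2), BCL9L, a cofactor of beta-catenin (21906 bp, fold 15.97), and TFAP2A, a transcription factor of surface epithelium (21778 bp, fold 18.1). EPHA2, an ephrin receptor, followed with 20917 bp, LAMA5, a laminin chain of the basement membrane, with 20665 bp, and TIPARP, a target of the aryl hydrocarbon receptor, with 20483 bp. H3K79me2 covered 93.4% of the SLC7A5 peak, 64.0% at BCL9L, 90.7% at TFAP2A, 96.2% at EPHA2, 73.1% at LAMA5 and 95.1% at TIPARP. Thus all but the 5S array among the 9 widest peaks were mostly in H3K79me2. A further 17439 bp peak shared bases with the record of LMNA, the lamin A/C gene, but held no annotated start of it. The cluster of H2AC18, H2AC19, H3C14 and H3C15 had 17180 bp with a fold of 15.4, and 64.5% of it was in H3K79me2. These histone genes are close copies of one another, which makes read placement there uncertain too.

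A gene was counted at a very wide peak when an annotated start site lay inside the peak or, for genes without an annotated start in the table used, an end of the gene record. By this rule 746 of 19126 autosomal protein-coding genes were at a very wide peak, a background of 3.90%, and 630 of them by a start. Of the 654 peaks, 588 (89.9%) held such a gene, against 82.3% of peaks of 4000 to under 8000 bp, 55.0% of those of 2000 to under 4000 bp and 18.6% of all H3K4me3 peaks. A longer interval has more room for a gene: per Mb, very wide peaks held 111 protein-coding genes, against 187 in peaks of 4000 to under 8000 bp. Usually there was 1 gene. The 448 peaks with 1 protein-coding gene compare with 124 with 2, 12 with 3, 3 with 4 and 1 with 5, the histone cluster of H2AC13 and 4 others. In 94 of the 746 genes, whose median length was 3481 bp, the whole gene record fitted inside the peak. Gene length over all 746 had a median of 32026.5 bp, against 35870.5 bp for genes whose widest peaks were of 4000 to under 8000 bp and 24476.5 bp for all protein-coding genes.

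The 23 gene lists covered functions and cell types, and 62 of their 452 genes (13.7%) lay at a very wide peak against the background of 3.90%. Because the lists were written with earlier results of these data known, their shares are a description and no test of an excess. Feedback regulators of the ERK pathway, which the kinase switches on and which then dampen it, had the highest share. Very wide peaks covered 10 of 16, and all 16 had an H3K4me3 peak of some size, with a median widest peak of 8874 bp against 3550 bp over all protein-coding genes with a peak. EPHA2 was the widest with 20917 bp, then ERRFI1, an inhibitor of the EGF receptor, with 12999 bp. The phosphatase genes DUSP4, DUSP5, DUSP1 and DUSP6, which remove phosphate from MAP kinases, had 10402, 9611, 9224 and 9051 bp in that order. The signalling inhibitors SPRY4, SPRY2 and SPRED1 had 9512, 8697 and 8343 bp, and PHLDA1, an immediate early gene, had 9513 bp. Below the threshold were DUSP7 with 6701 bp, SPRY1 with 5221 bp, DUSP10 with 4274 bp, SPRED2 with 4109 bp, LRIG1 with 3732 bp and SPRED3 with 3137 bp. H3K79me2 covered from 40.2% at DUSP1 to 100% at DUSP5 of the 10 peaks, and no H3K27me3 peak touched any of them.

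**Figure D2:**
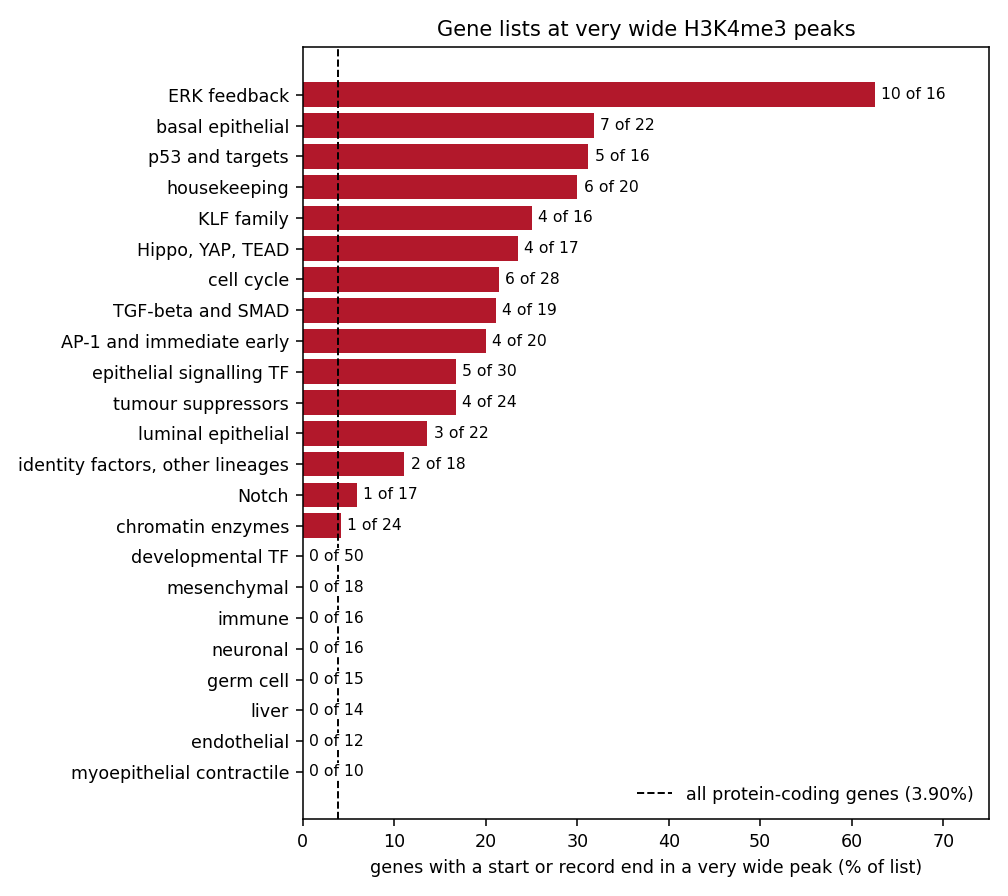
Horizontal bars give, for each of the 23 gene lists, the percentage of its genes with a start or record end in a very wide H3K4me3 peak, with the count beside the bar. The dashed line is the share of all protein-coding genes, 3.90%. ERK feedback genes stand at 10 of 16, and 8 lists stand at 0, each too small to be told from that share. The lists were written with earlier results of these data known.

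After the ERK feedback list, the basal epithelial list had the highest share at a very wide peak, 7 of 22 (31.8%). The p53 list, with 5 of 16, and the housekeeping list, with 6 of 20, came close behind. Among the 7 basal genes, ITGA3, an integrin chain that binds laminin, had 12151 bp with a fold of 14.5. KRT5, the keratin of basal cells, had 11440 bp with a fold of 11.7, and LAMB3, a chain of the anchoring laminin, had 11363 bp. CAV1 (10661 bp), the desmosomal cadherin gene DSG3 (9271 bp) and KRT6A (8902 bp) were also among them. Other basal genes of the list, including KRT14, KRT17, TP63, ITGB4 and EGFR, lay at narrower peaks or none. Of 22 luminal genes 3 qualified (13.6%, against 13.7% of all list genes): KRT7 with 10059 bp, XBP1 with 8322 bp and GATA3 with 8161 bp. The estrogen receptor gene ESR1, FOXA1, KRT8 and KRT18 of the same list did not.

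Several further lists were of signalling and growth control. In the Hippo list 4 of 17 genes qualified, among them both coactivators, YAP1 with 12065 bp and WWTR1 with 8312 bp, while none of the 4 TEAD genes did. TGF-beta genes had 4 of 19: the receptor TGFBR2 (11763 bp) and 3 inhibitors of the pathway, SMAD7 (11235 bp, fold 19.6), TGIF1 (10626 bp) and SKI (9421 bp). SMAD6, SKIL, SMURF1 and SMURF2 of the same list did not qualify, with widest peaks of 3695, 3757, 4523 and 7125 bp. Genes of p53 and its targets had 5 of 16, with MDM2, which degrades p53, at 12555 bp, SESN2 at 10473 bp, SESN1 at 9600 bp, the cell death gene BBC3 at 8200 bp and CDKN1A, which encodes p21, at 8123 bp. AP-1 and immediate early genes had 4 of 20 (KLF6, FOSL2, MYC and JUNB), without FOS, JUN or EGR1, and the KLF family had 4 of 16 (KLF3, KLF5, KLF16 and KLF6). Cell cycle genes had 6 of 28. Most of the 6 were genes of cyclins or their kinases, among them CDK6 with 9031 bp and CCND2 with 8473 bp. The other 2 were inhibitors of cyclin-dependent kinases, CDKN1B with 12939 bp and CDKN1A. Epithelial signalling factors had 5 of 30, led by TFAP2A and by NFE2L2, the regulator of antioxidant genes, with 17181 bp.

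Ordinary, widely used genes had a share close to that of the basal epithelial list, so the basal share did not stand out from theirs. Housekeeping genes had 6 of 20, among them the signalling adaptor YWHAZ with 11983 bp, the elongation factor EEF1A1 with 10114 bp and cytoplasmic actin ACTG1 with 9040 bp. ACTB and GAPDH were not among them. Tumour suppressors had 4 of 24, among them CDKN1B, RUNX1 and ARID1A, chromatin enzymes and readers 1 of 24, and the Notch list 1 of 17 (HES1). Identity factors of other lineages had 2 of 18, NR2F2 with 12370 bp and BCL6 with 10769 bp. None qualified among 50 developmental transcription factors, 18 mesenchymal, 16 neuronal, 16 immune, 15 germ cell, 14 liver, 12 endothelial and 10 contractile myoepithelial genes. Many of those genes had no peak at all: 27 of the 50 developmental factors had one, and 2 of the 15 germ cell genes.

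Gene families were then sorted by symbol, in 18 classes chosen after the genes had been seen, and their counts stand beside the 3.90% of all protein-coding genes. Genes for HNRNP proteins, which package and splice pre-mRNA, had 10 of 25 at a very wide peak, among them HNRNPF (16773 bp, fold 13.3), HNRNPA2B1 (14878 bp, fold 18.0), HNRNPA1 (11994 bp, fold 16.6) and HNRNPK (9394 bp, fold 16.9). H3K79me2 covered from 74.2% of the peak at HNRNPA1 to all of it at HNRNPF and HNRNPK. Ribosomal protein genes had 11 of 81 and replication-dependent histone genes 11 of 69. Many of these histone genes shared a peak, as in the clusters of H2AC18 and H2AC13, so they are not separate observations. The integrin class had 3 of 22, too few to set against 3.90%. Sorted by symbol, it also took in ITGB1BP1 and ITGB3BP, which are not integrin chains. By contrast 7 of 505 ZNF genes and 0 of 391 olfactory receptor genes were at a very wide peak. An H3K4me3 peak of any width was at 425 of the ZNF genes but only 4 of the olfactory receptor genes, against 68.2% of all protein-coding genes. Protocadherin genes had 0 of 63, with a peak of any width at 33, and HOX genes 3 of 40, among them HOXA5 with a peak of 10545 bp. Both counts are too few to set against 3.90%.

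Noncoding genes formed a second layer. Of 17795 lncRNA genes 266 (1.49%) had a start or record end in a very wide peak, and 242 of the 654 peaks (37.0%) held at least 1, against 26.2% of peaks of 4000 to under 8000 bp. Per Mb of peak the order was the other way, with 39.7 lncRNA genes in very wide peaks and 52.3 in peaks of 4000 to under 8000 bp. MicroRNA genes numbered 45 of 1793 (2.51%) and small nucleolar RNA (snoRNA) genes, which guide chemical changes in ribosomal RNA, 57 of 1150 (4.96%). Per Mb of peak, snoRNA genes stood at 8.50 in very wide peaks and 4.21 in peaks of 4000 to under 8000 bp, and microRNA genes at 6.71 and 4.73. Transfer RNA genes ran the other way too, with 1.49 per Mb in very wide peaks and 4.33 per Mb in the narrower ones. The 10 of 439 transfer RNA genes (2.28%) sat in 5 peaks, and 5 of them in the peak of 10696 bp at ALOXE3 and HES7. Ribosomal RNA genes had 17 of 49 (34.7%), all in the 5S array. Pseudogenes were rare, with 19 of 14324 (0.133%), as were transcribed pseudogenes, with 7 of 1197 (0.585%), and small nuclear RNA genes, with 1 of 151 (0.662%), RNU4ATAC of the minor spliceosome.

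The snoRNA genes were clustered. The 57 genes lay in 21 peaks, and the peak at chr1:173862800-173870995 (8196 bp, fold 18.4) held 11 of them at GAS5, a host gene whose introns carry snoRNAs. Other hosts were RPL23A, RPL4, RPL17 and RPS12, which encode ribosomal proteins, and the lncRNA genes ZFAS1 and SNHG16. For microRNAs, 38 hairpins with a RefSeq sequence lay in 33 peaks. The let-7a and let-7f sequences printed above share the seed GAGGUAG and came from a peak of 11343 bp (fold 12.6) at chr9:94165467-94176809. Those of miR-15b and miR-16 share AGCAGCA and came from a peak of 11216 bp (fold 14.4) over the genes IFT80 and SMC4. MIR21, a microRNA abundant in many epithelia, lay in a peak of 10869 bp (fold 14.3) that shared bases with the record of VMP1. That peak held no annotated start of a protein-coding or lncRNA gene. MIR125B1 lay in a peak of 8860 bp inside its host MIR100HG, and MIR193B and MIR365A in a peak of 9906 bp at MIR193BHG.

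H3K4me3 reached further into genes than upstream of them. Over 633 pairs of a gene and the very wide peak holding its starts, the peak ran a median of 2740 bp upstream and 6753 bp downstream of the start, and 478 (75.5%, exact 95% interval 72.0 to 78.8%) ran further downstream. A second start or gene in the same peak blurs such distances, and 247 of the 543 peaks with an annotated start (45.5%) had starts on both strands. In the 170 very wide peaks with exactly 1 start the medians were 1969 bp upstream and 7181.5 bp downstream, and 147 (86.5%, 80.4 to 91.2%) ran further downstream. In 1496 peaks of 4000 to under 8000 bp with 1 start they were 1257 bp and 3688.5 bp, and 89.6% ran further downstream. Very wide peaks thus differed more on the downstream side, by 3493 bp at the median, than upstream, by 712 bp; both sides add up to the width, which chose the peaks. Intervals here and below cover counting error only, and the read depth behind the peak lists is unknown.

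**Figure D3:**
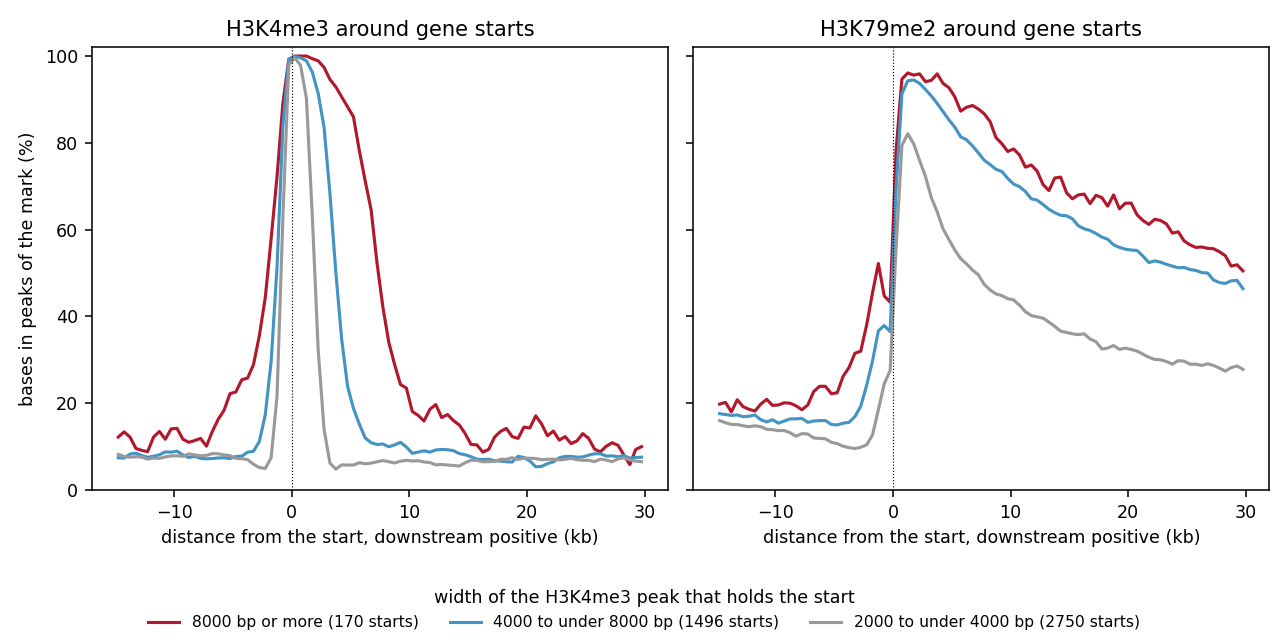
The y axis is the percentage of bases in peaks of H3K4me3 (left) or H3K79me2 (right), in 500 bp steps from 15 kb upstream to 30 kb downstream of a start, for H3K4me3 peaks with exactly 1 start. Red is the 170 starts in very wide peaks, blue the 1496 in peaks of 4000 to under 8000 bp and grey the 2750 in peaks of 2000 to under 4000 bp. The H3K79me2 curves step up at the start in all 3 classes, and the red curve stays above the blue one downstream, with 66.1% against 55.3% at 20 kb.

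H3K79me2 was present at nearly every very wide peak. Of 654 peaks, 653 (99.8%, 99.2 to 100%) shared at least 1 bp with an H3K79me2 peak, against 97.0% of peaks of 4000 to under 8000 bp, 77.0% of those of 2000 to under 4000 bp and a background of 40.7% over all H3K4me3 peaks. Any longer interval is more easily touched, so the share of bases is the fairer comparison. It was 83.3% in very wide peaks, 75.9% in peaks of 4000 to under 8000 bp and 51.9% in those of 2000 to under 4000 bp. At like H3K4me3 fold the order held: between 10-fold and 15-fold it was 85.0% against 77.0% in the class below, between 15-fold and 20-fold 84.0% against 80.4%, and at 20-fold or more 81.0% against 79.9%. H3K79me2 peaks touching very wide peaks were also long, with a median longest peak of 22501 bp, against 14279.5 bp and 5911.5 bp in the narrower classes. These lengths were not adjusted for the width of the H3K4me3 peak. With only H3K79me2 peaks of −log10 q of at least 5, a measure of the caller's certainty, 387 very wide peaks (59.2%) were touched, against 33.1% and 10.5%. By bases the shares at that setting were 48.2%, 27.8% and 9.23%.

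The H3K79me2 signal lay mostly on the downstream side. For very wide peaks with 1 start, 76.0% of the 10 kb past the downstream edge was in H3K79me2 peaks, against 21.6% of the 10 kb past the upstream edge, and in peaks of 4000 to under 8000 bp these values were 75.1% and 16.7%. By position, H3K79me2 covered 52.2% between 1500 and 1000 bp before the start and 43.3% of the last 500 bp before it. After the start it covered 78.1% of the first 500 bp and 96.1% between 1000 and 1500 bp. At 5000 bp it still covered 90.6% in very wide peaks and 83.6% in the class below. At 10000 bp the values were 78.6% and 70.5%. In 154 of the 170 very wide peaks (90.6%), H3K79me2 ran past the downstream edge of the H3K4me3 peak. The start site itself lay in an H3K79me2 peak at 80 of 170 (47.1%, 39.4 to 54.9%), against 39.5% (37.0 to 42.0%) in peaks of 4000 to under 8000 bp, and these intervals overlap.

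Some genes carried H3K79me2 far beyond the H3K4me3 peak. An H3K79me2 peak of 330876 bp touched both very wide peaks at JMJD1C, a gene of the histone demethylase family (11469 and 8228 bp). ARID1B, a subunit of a chromatin remodeller, had one of 245909 bp, CDK6, a kinase of the early cell cycle, one of 203130 bp, and GSK3B, a kinase of Wnt signalling, one of 178554 bp. Their very wide H3K4me3 peaks were of 9259, 9031 and 12134 bp.

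**Figure D4:**
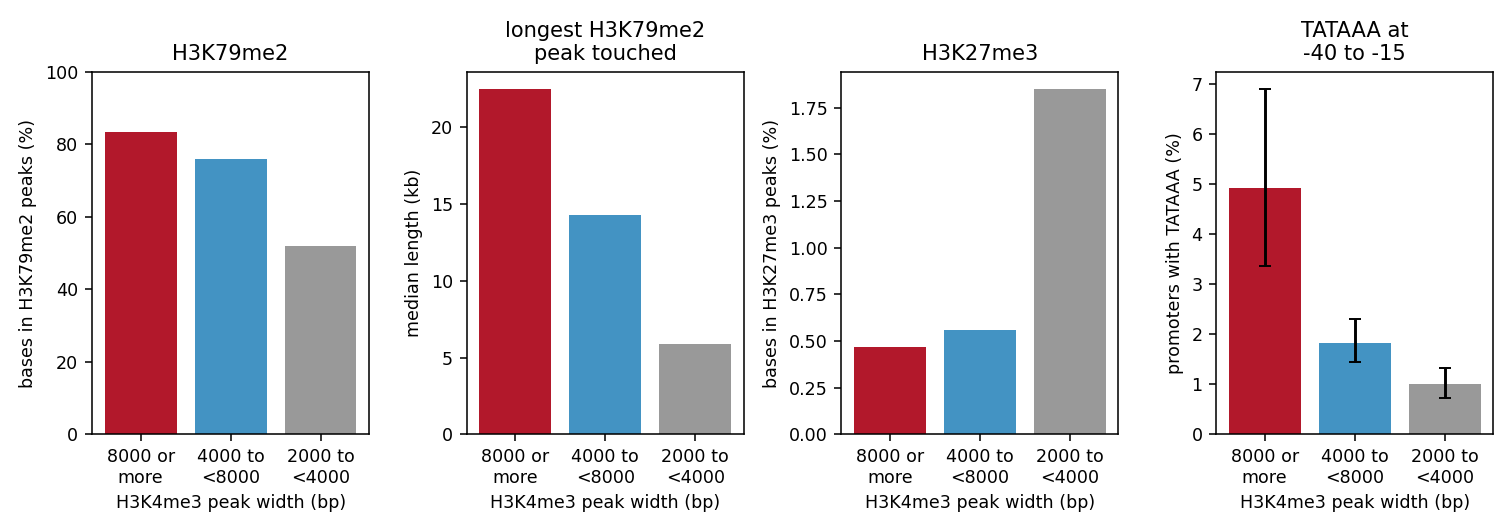
Bars compare H3K4me3 peaks of 8000 bp or more (red) with those of 4000 to under 8000 bp (blue) and 2000 to under 4000 bp (grey). From left to right, the y axes are bases in H3K79me2 peaks (%), the median length of the longest H3K79me2 peak touched (kb), bases in H3K27me3 peaks (%) and promoters with TATAAA 40 to 15 bases upstream of the start (%). Error bars on the last panel are exact 95% intervals; the other bars have none. Very wide peaks have the most H3K79me2, 83.3% of bases, and 0.467% of bases in H3K27me3.

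The exceptions to H3K79me2 were few and named genes stood out among them. In 28 very wide peaks less than 50% of bases were covered. The peak at GLI1 and INHBE (chr12:57454601-57463097, 8497 bp, fold 9.63) was the only one with none; GLI1 is an effector of Hedgehog signalling. LTBP4, which holds latent TGF-beta in the matrix, had 4.88%, the peak with 5 transfer RNA genes at ALOXE3 and HES7 19.7%, and ZNF608 24.9%. The histone cluster of H2AC13, H2AC14, H2BC13, H2BC14 and H3C10 had 25.8%, the Notch target HES1 29.1%, and the cell cycle gene CCND2 31.3%. PTCH1, a Hedgehog receptor, had 37.9% under one of the highest H3K4me3 folds, 23.8. The metallothionein gene and immediate early genes were among the rest, with MT2A at 37.1%, JUNB at 37.6% and DUSP1 at 40.2%. Of these 28 peaks 9 (32.1%) also touched an H3K27me3 peak, against 11.0% of all 654. With only H3K27me3 peaks of q of 0.05 or below, those at GLI1 with INHBE, LTBP4, ZNF608 and CCND2 remained, and 1.83% of all 654.

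H3K27me3 covered little of the very wide peaks. A touch of at least 1 bp was found at 72 (11.0%, 8.71 to 13.7%), against 8.42% (7.64 to 9.25%) of peaks of 4000 to under 8000 bp, 9.0% of those of 2000 to under 4000 bp and a background of 6.66%, with overlapping intervals for the 2 widest classes. By bases H3K27me3 took 0.467% of very wide peaks, 0.560% of the class below and 1.85% of peaks of 2000 to under 4000 bp. The shared stretch had a median of 188 bp, and 4 very wide peaks shared 1000 bp or more. Counting only H3K27me3 peaks with q of 0.05 or below left 12 very wide peaks (1.83%, 0.952 to 3.18%), against 1.74% of the class below and a background of 2.75%. The nearest such peak lay a median of 109984 bp away, against 92165 bp for peaks of 4000 to under 8000 bp, and 30 very wide peaks (4.59%, 3.12 to 6.48%) had one within 10000 bp, against 7.18% (6.46 to 7.96%). Those intervals overlap at their ends.

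CCND2 and IGF2BP3 carried both H3K4me3 and H3K27me3 over long stretches. At CCND2 (chr12:4269199-4277671), 8 H3K27me3 peaks took 6403 of 8473 bp, or 75.6%, with a fold of up to 8.74. At IGF2BP3, an mRNA-binding protein gene of fetal tissues (chr7:23465279-23475196), 8 peaks took 4404 of 9918 bp, or 44.4%, with a fold of up to 8.03, and 66.2% of the peak was in H3K79me2. One library of each mark over many cells cannot show whether both marks sat on the same chromosome copy. A stretch at chr9:11058473-11068432 with no gene shared 3780 bp with H3K27me3 at a fold of up to 4.62. At GLI1 and INHBE 1480 bp were shared, at LTBP4 808 bp and at IGF1R, the receptor of insulin-like growth factor, 493 bp, with a further 7823 bp in the 10 kb flanks. The others at q of 0.05 or below were CDK6, HNRNPDL with ENOPH1, YWHAG, NFIB, ZNF608 and BCL11A, each sharing 330 bp or less.

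**Figure D5:**
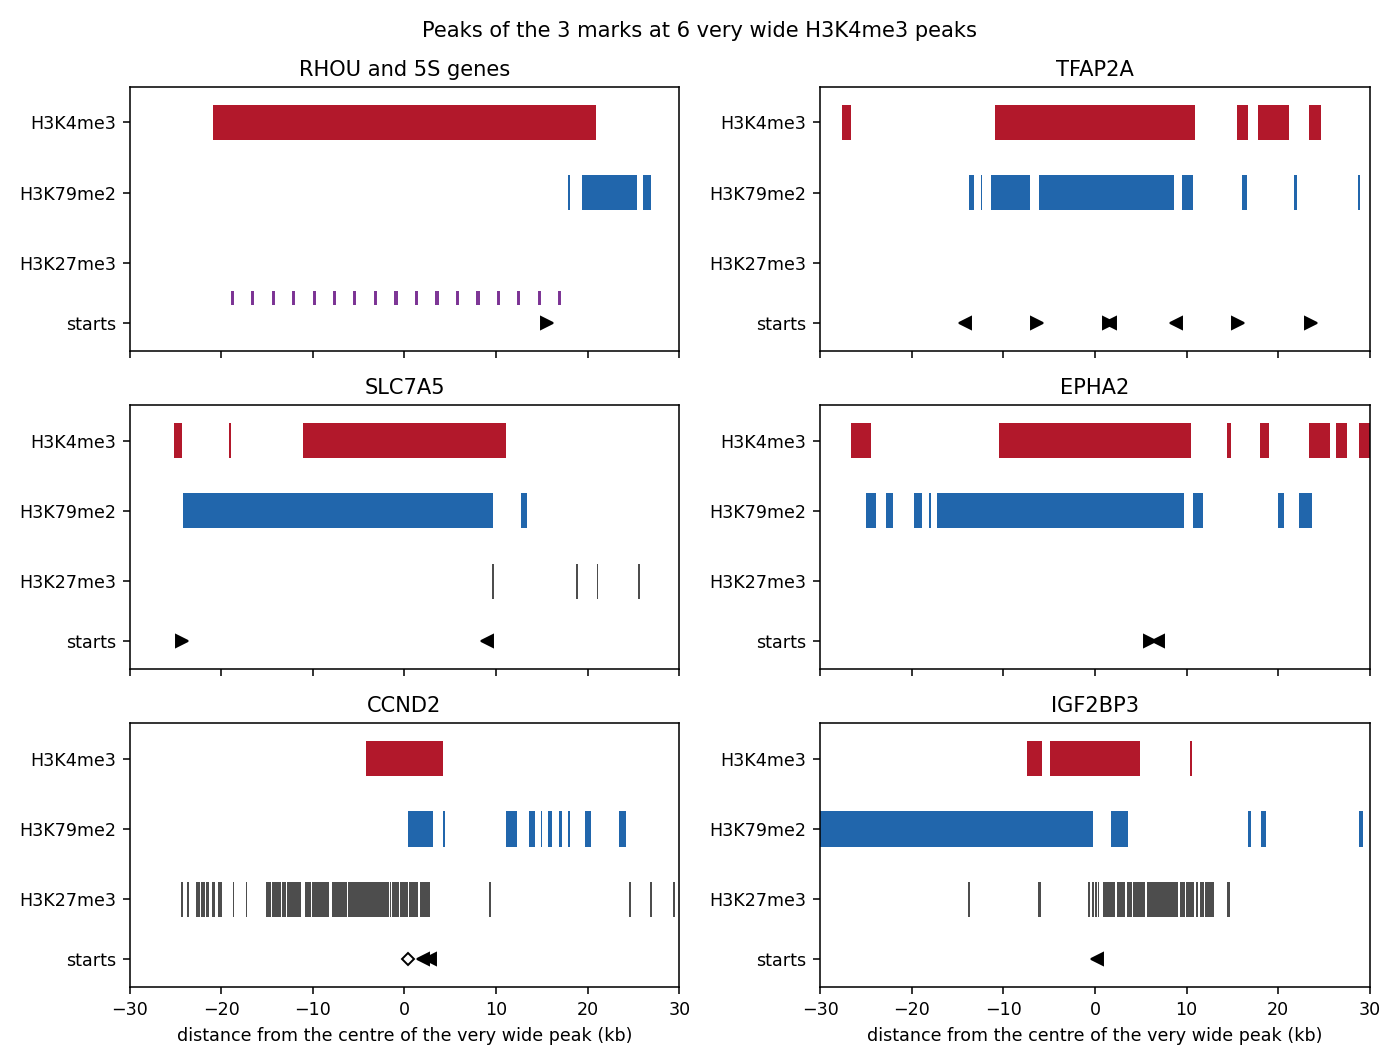
Peaks of H3K4me3 (red), H3K79me2 (blue) and H3K27me3 (grey) are drawn to scale within 30 kb of the centre of 6 very wide H3K4me3 peaks. Black arrowheads are annotated starts pointing along the gene, open diamonds are ends of protein-coding gene records that have no annotated start, and purple ticks are 5S ribosomal RNA genes. H3K79me2 covers the peaks at TFAP2A, SLC7A5 and EPHA2, almost none of the peak at RHOU (4.12%), and H3K27me3 lies over 75.6% of the peak at CCND2 and 44.4% at IGF2BP3.

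Very wide peaks without the start or record end of a protein-coding gene numbered 66 (10.1%). Their median fold was 10.3, against 14.7 in the 588 with one, while their H3K79me2 was alike by bases, 82.4% against 83.4%. Record ends were checked only for genes without an annotated start, so some of the 66 may hold the end of a gene with one. Of the 66, 27 held a lncRNA start or record end, 32 shared bases with the record of a protein-coding gene and 7 did neither. The 32 touching a record had a median fold of 6.21 and 67.8% of their flanks in H3K79me2, against 51.7% at the 588. Examples were peaks touching the records of LMNA, PDGFC, TRIO and PKD1. Weak peaks were mostly of this kind: 17 very wide peaks had a fold under 5, the lowest being 2.49 in the ANXA2 record and 2.63 in the ACTN1 record, and 1 of the 17, at SEPTIN9, held a protein-coding start. Among the 17, 8 lay entirely in H3K79me2 peaks (47.1%), against 113 of the 637 others (17.7%); by bases, H3K79me2 covered 77.8% of the 17 and 83.4% of the 637. Of the 7 peaks with neither, 2 lay over SLC7A5P2 and SLC7A5P1, with 10659 and 10601 bp; these pseudogenes resemble SLC7A5, so their reads are of uncertain placement.

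Promoter sequence was compared over 250 bases upstream of 1 start per gene, the one in the widest H3K4me3 peak. The 630 genes with a start in a very wide peak had a median of 23 CpG and 66.0% G and C, against 22 CpG and 65.6% for 3871 genes starting in peaks of 4000 to under 8000 bp and 4 CpG and 52.0% for 4403 genes with no peak at the start. CpG was at least 0.6 of what base composition gives in 85.2% (82.2 to 87.9%) of the promoters at very wide peaks, 87.4% (86.3 to 88.4%) of those at peaks of 4000 to under 8000 bp and 19.1% of those with no peak. Very wide peaks and the class below thus overlapped in this measure. The CCAAT motif, the letters CCAAT on either strand, was in 38.9% of the 630 promoters at very wide peaks, 37.6% of those at peaks of 4000 to under 8000 bp and 34.2% of all 15101. GGGCGG, the core of sites bound by SP1, was in 70.2% of the 630, 69.9% of the class below and 56.9% of all. CACGTG, the E-box of factors such as MYC, was in 11.1% of the 630, 8.76% of the class below and 7.73% of all.

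TATAAA differed in frequency between very wide peaks and the next class. On either strand, anywhere in the 250 bases, it was in 65 of 630 promoters at very wide peaks (10.3%, 8.05 to 13.0%), against 199 of 3871 (5.14%, 4.47 to 5.88%) in peaks of 4000 to under 8000 bp and 9.38% of all 15101 promoters. A narrower search, chosen after the data had been seen, asked for TATAAA on the gene's strand lying wholly between 40 and 15 bases upstream of the start. These letters were found in 31 of 630 promoters (4.92%, 3.37 to 6.91%), against 71 of 3871 (1.83%, 1.44 to 2.31%) in peaks of 4000 to under 8000 bp and 45 of 4510 (0.998%) in peaks of 2000 to under 4000 bp. In peaks under 2000 bp the share was 2.96% (2.21 to 3.89%), over genes with no peak it was 8.06%, and over all 15101 promoters it was 3.66%, which lies within the interval of the very wide peaks. Among peaks of at least 10000 bp it was 18 of 238 (7.56%, 4.54 to 11.7%). Replication-dependent histone genes gave 9 of the 31; without such genes the shares were 22 of 619 (3.55%, 2.24 to 5.33%) and 56 of 3836 (1.46%, 1.10 to 1.89%). Besides the genes whose sequences were printed above, the 31 included the heat shock gene HSPA1A, which has close copies, the vasodilator peptide gene ADM, the antioxidant enzyme gene GCLC, the splicing factor gene SRSF3 and the housekeeping genes RPLP0 and PPIA. The 31 genes lay in 25 peaks, so some of them shared a peak. Their median length was 4413 bp, against 32026.5 bp over the 746 genes. That median includes the 9 histone genes, of 451 to 534 bp, and length was not compared without them. On chromosome 4, AREG (14654 bp, fold 15.5) and EREG (9341 bp, fold 8.63) each had their own very wide peak. A match to these letters is a description of sequence and shows no binding. Among peaks of 2000 bp or more the motif was more frequent at wider peaks, but it was most frequent at genes with no peak. The 31 genes were also shorter at the median, with the histone genes among them. The part of gene length and of peak width was not tested.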

How the data were processed

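Chromatin from MCF10A cells was sequenced once per mark. Per the submitters' processing notes, Bowtie2 2.3.1, MACS2 2.1.1 and build hg38 were used; peak names carry p0.05, and the sources used here do not state whether the input was the control. The fold deposited for each peak is a ratio of its signal to the background that the caller set, and −log10 p and −log10 q are the authors' caller values; p as such was not used. Peaks were called per library, and read depth is unknown.

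Peaks of chromosomes 1 to 22 were compared by overlap of at least 1 bp with Python 3.11.15, pandas 2.3.3 and numpy 2.4.6; exact (Clopper-Pearson) intervals used scipy 1.17.1. The overlap code was tested on simulated peaks. RefSeq tables of GRCh38.p14, the same build, gave genes and promoters. Start sites were used for the 15101 of 19126 protein-coding genes with a promoter entry, and record ends for the others, including all on chromosome 8, where 32 of the peaks lie. That mix departs from the planned rule of 1 kind of end. Named genes are the widest and the most or least marked peaks and the members of the 23 lists. The peaks and lists were chosen with earlier results of these data known. Alternatives changed the width, the q of the marks, the shared length and the gene rule. Some genes counted in the lists are not reported by name here.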

Additional observations from a re-analysis of the deposited data

Results flagged for a closer look

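Chromosome X lies outside the definition used, which covers chromosomes 1 to 22. It held 9 peaks of at least 8000 bp among 1988 H3K4me3 peaks (0.453%), the widest of 20514 bp, against 0.994% on chromosomes 1 to 22. These peaks were set aside as a signal in data that no comparison used.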

How the results depend on the processing

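With a minimum width of 6000 bp there were 1801 peaks, 2034 protein-coding genes and 26.5% of list genes, and with 10000 bp 250 peaks and 285 genes; ERK feedback genes then stood at 11 of 16 with 6000 bp. Joining peaks across gaps of up to 1000 bp gave 851 peaks, a fold of at least 5 gave 637 and −log10 q of at least 5 gave 648. The share touched by H3K79me2 was 97.9% with H3K79me2 q of at most 0.05, 59.2% with −log10 q from 5 upward and 95.7% when at least 50% had to be covered. For H3K27me3 it was 1.83%, 0.459% and, with at least 200 bp shared, 4.28%. Starts nearer the upstream edge made up 86.5% in peaks with exactly 1 start. TATAAA shares of 3.33% at 6000 bp, 7.56% at 10000 bp and 3.55% without histone genes were chosen after seeing the data, as was leaving out peaks with ribosomal or transfer RNA genes (H3K79me2 at 99.8%). Of 49 alternatives for single lists or motifs 17 moved. Of the alternatives for the main results 12 moved and 12 stayed the same. No paired analysis was possible because each mark had 1 library. The depth behind the lists is unknown, and p of 0.05 let 353923 peaks into the H3K27me3 list. Width can also reflect how the caller joined peaks, which was not tested.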

Other observations

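Very wide peaks were spread over all 22 chromosomes, from 75 on chromosome 1 to 7 on chromosome 21. Chromosome 12 had the highest share of its H3K4me3 peaks, 49 of 3412 (1.44%), and chromosome 15 the lowest, 16 of 2364 (0.677%). In 27 cases 2 very wide peaks lay within 50000 bp of each other. KRT6A and KRT5 were 17322 bp apart, MYL12A and MYL12B, which encode myosin light chains, 6132 bp, and the lncRNA gene CHASERR and CHD2, a chromatin remodeller, 7592 bp. On chromosome 8 the lncRNA genes CCAT1 (15171 bp, fold 3.72) and PVT1 (9517 bp, fold 13.6) had very wide peaks on either side of that at MYC (10132 bp, fold 19.3). The genes FKBP5, JMJD1C and SEPTIN9 each had 2 very wide peaks.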
